A study of Mus musculus with 13 samples.

Results

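Double-stranded RNA of mouse melanoma cells was precipitated with the J2 antibody after 2 treatments, and the results below compare the library of cells given 5-Aza-CdR and ADAR1i-124 together (the combination) with the library of cells given ADAR1i-124 alone. The pair asks what loss of DNA methylation adds when the editing enzyme ADAR1 is inhibited. A gene is a member if its mean over this pair reaches 1 CPM, where CPM is a gene's count scaled to the same total in every library. The deposited table has 54532 genes, of which 26861 had a count in the pair and 13971 are members. The cells were YUMM1.7, an established mouse melanoma line labelled as wild type (WT), so the data describe 1 line. ADAR1i-124 was given at 10 μM for 12 h and 5-AZA-CdR at 1 μM for 72 h. In the combination the cells received 5-Aza-CdR first and ADAR1i-124 for the last 12 h. The labels state no dose for it, and the supplementary legends of the study give 1 μM and 10 μM for the combined agents beside a lower dose of ADAR1i-124 that was also combined. The vehicle was DMSO. RNase I, an enzyme for single-stranded RNA, and DNase were applied to the extracted RNA, which was then precipitated with J2, depleted of ribosomal RNA and sequenced. The series holds 13 libraries, 1 per condition. Beside the pair, 6 libraries that it does not share are given where they bear on a member: J2 with 5-Aza-CdR and with DMSO, the Z22 antibody with the combination and with ADAR1i-124, and total RNA with 5-Aza-CdR and with DMSO.

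ADAR1 converts adenosine to inosine in double-stranded RNA, which loosens the duplex and keeps it from the cytosolic sensors MDA5 (encoded by Ifih1), PKR and the OAS enzymes. The sensor ZBP1 binds RNA in the left-handed Z form, which the antibody Z22 is also used to recognise. 5-Aza-CdR (decitabine) is built into DNA during replication and traps the maintenance methyltransferase DNMT1, so methylation is lost as cells divide. Methylation silences germline genes, repeats and retroviral copies, and transcription of such sequences from both strands can form duplexes that switch on interferon genes. J2 binds RNA duplexes irrespective of sequence, so a gene's CPM in a J2 library combines how much RNA the gene makes with how much of it is carried down.

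The J2 library of ADAR1i-124 alone holds 14396132 counts and that of the combination 11767409, and the precipitated libraries together span 8167960 to 15324595. A count of 3, the smallest taken as detected, is 0.208 CPM in the first and 0.255 CPM in the second. Each condition has 1 library, so no difference has a replicate check and no test was run. The ratio of counts of each gene has an exact (Clopper-Pearson) 95% interval that covers counting error and nothing else, since the reads carry no molecular identifiers and copies made by PCR count again. Over the 13971 genes, CPM in the J2 ADAR1i-124 library ranked with a Spearman correlation of 0.98 against the Z22 ADAR1i-124 library and 0.97 against the IgG control, whose treatment is not stated, and of 0.92 against the J2 combination library. These are correlations across genes, which are not independent replicates. The combination library of total RNA was not used for changes: on 2405 pairs of a gene and its antisense neighbour, 79.0% of its counts lay on the antisense gene, against 0.515% to 1.38% in the other 12 libraries. Defining markers of pigment cells were near 0 in the 4 J2 libraries, with Sox10 at 0 to 0.0695 CPM and Tyr, Tyrp1 and Dct at 0, while Mitf lay between 17.6 and 26.5 CPM. Summed CPM of the Y-linked genes was 56.6 for DMSO, 2.71 for ADAR1i-124, 3.16 for 5-Aza-CdR and 9.60 for the combination in the J2 libraries, and in total RNA it was 6.46 for DMSO, 106 for ADAR1i-124 and 89.1 for 5-Aza-CdR. The Z22 libraries held 30.1 CPM for DMSO, 13.9 for ADAR1i-124, 0.122 for 5-Aza-CdR and 6.01 for the combination. The labels do not say whether the libraries came from the same culture. Matrix genes differed between libraries in a like way: Col1a2 lay at 22.8 CPM after ADAR1i-124 alone and 31.3 in the combination, beside 363 for DMSO and 5.56 for 5-Aza-CdR. The part of these differences in the results below was not tested.

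In the combination library 2001 genes were at least 2-fold higher than with ADAR1i-124 alone, which is 14.3% of those tested, and 788 were at least 2-fold lower, which is 5.64%. At a 4-fold line 744 genes were higher (5.33%) and 116 were lower (0.830%). Changes are on the log2 scale after adding 0.5 CPM to both values, and this pulls those of low genes towards 0. The median change over all members was 0.11, with the middle of the distribution between -0.32 and 0.60 and the 5th and 95th percentiles at -1.05 and 2.07. Higher genes made up 71.7% of the 2-fold calls, and this share was 60.3% under edgeR's TMM factors (1663 higher and 1097 lower) and 60.6% under DESeq2's size factors (1668 and 1086), because either factor moved the median of all genes by -0.15. All 2001 higher and all 788 lower genes had count intervals that left out a ratio of 1, and the interval lay wholly beyond 2-fold for 1360 and 441 of them. Of the 8711 genes that reached a mean of 10 CPM, 735 were higher and 506 lower. In bulk RNA, fewer cells of a type and less RNA per cell cannot be told apart, and this holds for each gene group described here.

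**Figure D1:**
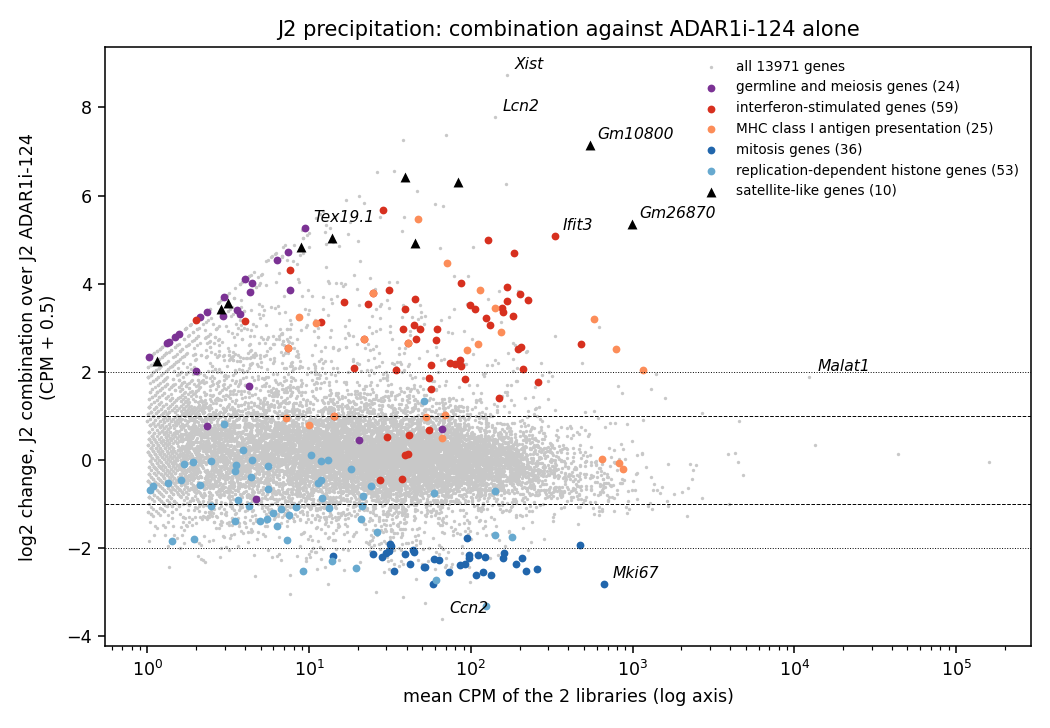
Change of each of the 13971 genes (log2 of combination over ADAR1i-124, J2 libraries, after adding 0.5 CPM) against its mean CPM over the pair on a log axis. Points above and below the lines at 1 and -1 are the 2001 higher and 788 lower genes, and coloured points are the germline, interferon-stimulated, MHC class I, mitosis, histone and satellite-like genes described in the text, with 1 library per condition and no error bars.

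Several of the largest differences were in genes that were near 0 in both J2 libraries without 5-Aza-CdR. Xist, the noncoding RNA that coats the inactive X chromosome, differed most of the genes that reached a mean of 10 CPM, by 8.74 on the log2 scale. Its J2 values were 0.492 CPM for vehicle, 0.278 for the inhibitor, 259 for 5-Aza-CdR and 333 for the combination, so both libraries with 5-Aza-CdR were high and both without it were near the detection level. The ratio of counts was 1199-fold, with an interval of 468 to 4402. Z22 precipitation gave 0.955 CPM with ADAR1i-124 and 189 with the combination, and total RNA went from 0.294 with DMSO to 123 with 5-Aza-CdR. Tsix, which is transcribed across Xist on the other strand, stayed at 0 to 0.0850 CPM in the 4 J2 libraries (named after its values were seen). The long noncoding RNA Gm14149 on chromosome 2 had 0 counts with ADAR1i-124 and 900 with the combination, which is at least 367-fold higher when set against 3 counts. The pseudogene Gm15930 on chromosome 7 lay at 0.575 CPM in the DMSO library, 0.347 after ADAR1i-124 alone, 134 after 5-Aza-CdR alone and 139.6 after both. Snhg14, the long host transcript of the imprinted Snrpn and Ube3a region, lay at 0.0695 CPM after ADAR1i-124 alone and 19.8 in the combination, beside 0.328 for DMSO and 24.2 for 5-Aza-CdR. In each of these genes the combination library lay close to that of 5-Aza-CdR alone, and both libraries without 5-Aza-CdR were under 1 CPM.

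Germline genes, which are silenced by promoter methylation in body cells, were among the lists with the highest medians. Of 61 listed germline and meiosis genes 24 were tested, 20 of them were at least 2-fold higher, 19 at least 4-fold, and none was lower, against 14.3% higher and 5.33% at 4-fold over all genes. The count is a description of the tested members, not of all 61: 13 had 0 counts in both libraries, and only 5 reached 1 CPM with ADAR1i-124 alone, so that most others passed the filter through the combination library and had to be higher. The median change was 3.26 (nonparametric 95% interval 2.34 to 3.82, a spread between genes), or 3.76 with the 10 members at 0 counts set at their bound. It lay above that of the interferon-stimulated genes here, but was 1.69 against 2.59 with a pseudocount of 2 CPM and 1.69 against 2.73 with no filter. Dazl, an RNA-binding protein of germ cells, lay at 0.0821 CPM for vehicle, 0.0695 for the inhibitor, 18.6 for 5-Aza-CdR and 14.6 for the combination, a ratio of 210.4-fold with an interval of 37.3 to 8359 because 1 count stood against 172. Tex19.1, which restrains retrotransposons in germ cells, had 0 counts with ADAR1i-124 and 222 with the combination, at least 90.5-fold higher. Sohlh2, a transcription factor of early germ cells, had 0 and 95 counts, at least 38.7-fold higher. Mov10l1, the helicase that loads piRNA precursors, lay at 0 CPM in the DMSO library, 0.0695 after ADAR1i-124 alone, 14.4 after 5-Aza-CdR alone and 12.7 after both. Tdrd9, another helicase of the piRNA pathway, lay at 0.556 CPM after ADAR1i-124 alone and 14.7 in the combination, beside 1.07 for DMSO and 20.98 for 5-Aza-CdR. These 5 genes had the same order in all J2 values: low in both libraries without 5-Aza-CdR and high in both with it. Sets without shared libraries gave median changes of 3.37 for 5-Aza-CdR over DMSO in J2 (20 higher), 2.58 for the Z22 pair (22 higher) and 1.28 in total RNA (15 higher), where 8.61%, 9.65% and 15.8% of all genes were higher. The 4 tested members within 2-fold were Tdrkh (-0.87), Zcwpw1 (0.76), Rhox5 (0.69) and Xlr (0.45). Rhox5 and Xlr, which lie on the X chromosome, had means of 66.1 and 20.3 CPM in the J2 pair, and for 5-Aza-CdR over DMSO in J2 they changed by 3.97 and 2.12.

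The promoter windows of 3 of these genes are shown because methylated cytosine sits in CpG pairs, whose number is compared between gene groups in the next paragraph. Each window runs from 250 bases before to 50 after the GENCODE M21 gene start, is written 5′ to 3′ on the gene's strand in build GRCm38, and has its CpG pairs in capitals. Tex19.1 is at chr11:121145893-121146192 on the plus strand with 16 CpG pairs, Dazl at chr17:50293587-50293886 on the minus strand with 26, and Xist at chrX:103483205-103483504 on the minus strand with 13.
Tex19.1: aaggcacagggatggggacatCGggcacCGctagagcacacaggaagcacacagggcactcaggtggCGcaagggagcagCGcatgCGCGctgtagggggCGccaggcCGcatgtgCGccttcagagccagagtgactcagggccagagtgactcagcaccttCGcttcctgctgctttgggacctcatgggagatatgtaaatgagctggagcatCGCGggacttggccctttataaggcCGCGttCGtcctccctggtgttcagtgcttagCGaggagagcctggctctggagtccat
Dazl: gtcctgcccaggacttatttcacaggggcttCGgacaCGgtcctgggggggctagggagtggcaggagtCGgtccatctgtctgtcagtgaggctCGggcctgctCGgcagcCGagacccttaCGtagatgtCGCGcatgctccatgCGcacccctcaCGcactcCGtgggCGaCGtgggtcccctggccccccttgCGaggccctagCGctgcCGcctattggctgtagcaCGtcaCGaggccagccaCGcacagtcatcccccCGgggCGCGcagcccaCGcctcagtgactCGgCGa
Xist: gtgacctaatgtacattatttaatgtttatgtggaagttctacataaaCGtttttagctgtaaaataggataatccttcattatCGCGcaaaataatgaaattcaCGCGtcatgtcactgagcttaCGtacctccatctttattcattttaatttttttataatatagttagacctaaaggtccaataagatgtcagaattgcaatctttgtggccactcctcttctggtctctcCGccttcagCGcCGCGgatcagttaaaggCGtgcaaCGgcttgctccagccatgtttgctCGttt

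Over the 13931 tested genes with a window, the median was 17 CpG pairs (quartiles 7 and 26). Germline genes had a median of 17 in 23 windows, close to that of all genes. The 1998 windows of the 2-fold higher genes had a median of 9 (quartiles 4 and 21), the 744 of the 4-fold higher genes a median of 6 (3 and 14), and the 784 of the lower genes a median of 17 (8 and 25). Windows of the higher genes thus held fewer CpG pairs than those of members at large, and windows of the germline genes did not. Slfn4 and Csf3, named with the immune genes, had 7 and 6.

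Repeated sequence was also counted, through gene models that lie on it. Gm10800 and Gm10801 on chromosome 2, Gm26870, Gm11168, Gm10718, Gm10722, Gm10719, Gm10717 and Gm17535 on chromosome 9, and Gm21738 on chromosome 14 share at least 5% of their 31-base words with Gm10800. On chromosome 9 Gm26870 is on the minus strand and spans the other 6 genes, which are on the plus strand, so that these models cover the same sequence. Mouse major satellite, which forms the heterochromatin beside centromeres, repeats every 234 bases. Shifted by 234 bases, Gm10800 matched itself at 67.2% of positions, against a median of 30.7% over shifts of 20 to 300 bases and 25.8% over all genes at that shift. The other genes matched themselves at 47.6% to 82.5%, except Gm10801 at 28.6%, which shared 13.5% of its words with Gm10800. All 10 were at least 2-fold higher in the combination, against 14.3% of all genes, with changes of 2.25 to 7.16. Gm10801, Gm10718, Gm10722, Gm10719, Gm10717 and Gm17535 were below 1 CPM with ADAR1i-124 alone. They passed the filter through the combination library and had to be higher. Gm10800 lay at 6.73 CPM for vehicle, 7.09 for the inhibitor, 2183 for 5-Aza-CdR and 1082 for the combination. Gm26870 lay at 29.4 CPM in the DMSO library, 46.9 after ADAR1i-124 alone, 1987 after 5-Aza-CdR alone and 1932 after both. Summed over the 10 genes, J2 CPM was 41.0 for DMSO, 59.1 for ADAR1i-124, 4962 for 5-Aza-CdR and 3403 for the combination, so the combination library was below that of 5-Aza-CdR alone and satellite-like genes took 0.340% of its counts. Z22 libraries held 15.1, 14.1, 316 and 1101 CPM in the same order of treatments, in which the combination was highest. Total RNA went from 7.23 CPM with DMSO to 138 with 5-Aza-CdR, and the IgG library held 7.24. The 7 genes on the plus strand summed to 2.71 CPM with ADAR1i-124 and 302 with the combination, and the 3 on the minus strand to 56.4 and 3101, but genes of both strands overlap. The strand setting of the counting is not given in the sources. On pairs of a gene and its antisense neighbour, 1.30% and 1.38% of the counts of these 2 libraries lay on the antisense gene. Reads from near-identical copies could be split between these genes in ways that the table does not show, so the sum is firmer than any single value.

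One 234-base unit of 2 of these genes is shown, since these 2 held the most counts of the group in the combination library. The unit of Gm10800 is at chr2:98666549-98666782 and that of Gm26870 at chr9:3027538-3027771, both read on the plus strand of GRCm38 with CpG pairs in capitals. They hold 7 and 4 CpG pairs and match at 93.6% of positions once one is turned to the other strand and shifted along the repeat.
Gm10800: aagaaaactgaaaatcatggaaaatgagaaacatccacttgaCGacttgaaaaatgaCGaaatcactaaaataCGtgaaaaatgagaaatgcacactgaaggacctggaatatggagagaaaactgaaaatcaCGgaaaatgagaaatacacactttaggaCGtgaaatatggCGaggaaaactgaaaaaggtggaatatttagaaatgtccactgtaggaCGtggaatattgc
Gm26870: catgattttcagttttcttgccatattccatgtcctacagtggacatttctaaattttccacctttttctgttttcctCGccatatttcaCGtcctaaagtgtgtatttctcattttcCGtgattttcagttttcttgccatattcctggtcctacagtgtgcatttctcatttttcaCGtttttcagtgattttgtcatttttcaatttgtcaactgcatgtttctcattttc

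**Figure D2:**
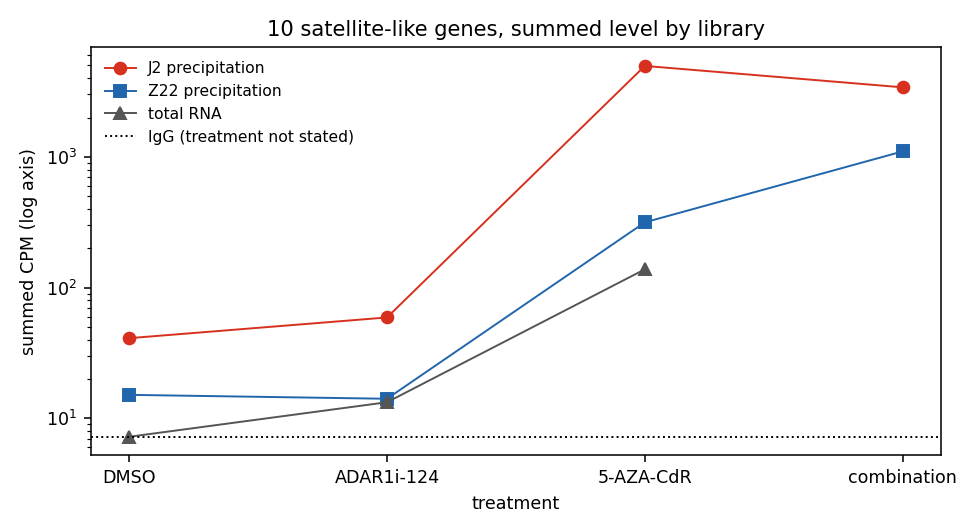
Summed CPM of the 10 satellite-like genes (log axis) by treatment, 1 library per point, with lines that only join the libraries of 1 preparation and a dotted line at the IgG value of 7.24. J2 goes from 59.1 with ADAR1i-124 to 3403 with the combination and Z22 from 14.1 to 1101, and total RNA has no point for the combination.

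Interferon-stimulated genes had the most higher members of the 31 lists. Of 67 listed, 65 are in the table and 59 were tested, of which 51 were at least 2-fold higher, 46 at least 4-fold, 8 within 2-fold and none lower, against 14.3% higher and 5.33% at 4-fold over all genes. The median change was 2.96 (2.52 to 3.23). Ifit3, the antiviral partner of the RNA-binding protein IFIT1, had J2 values of 18.3 CPM after ADAR1i-124 alone and 639.8 in the combination, beside 327 for DMSO and 813 for 5-Aza-CdR. The combination was 34.9-fold higher than ADAR1i-124 alone (30.9 to 39.6), and ADAR1i-124 alone was the lowest of the 4 while DMSO lay between. Irf7, the factor that amplifies interferon production, lay at 127 CPM for vehicle, 13.3 for the inhibitor, 403 for 5-Aza-CdR and 357 for the combination. Ifi213, a member of the family that binds cytosolic DNA, lay at 12.8 CPM in the DMSO library, 0.625 after ADAR1i-124 alone, 39.6 after 5-Aza-CdR alone and 56.8 after both. Gbp2, a GTPase that attacks vacuoles of pathogens, lay at 9.59 CPM after ADAR1i-124 alone and 163 in the combination, beside 58.3 for DMSO and 189 for 5-Aza-CdR. In all 4 genes the inhibitor alone was the low library and the combination lay above DMSO. The summed list kept that order: 5754 CPM for DMSO, 1476 for ADAR1i-124, 10185 for 5-Aza-CdR and 9467 for the combination. The library of ADAR1i-124 alone was thus the low one, and the combination did not exceed 5-Aza-CdR alone. In total RNA the list summed to 7365 CPM with DMSO, 663 with ADAR1i-124 and 7691 with 5-Aza-CdR, so that ADAR1i-124 alone was low there as well. The Z22 libraries held 5855, 2728, 5717 and 8863 CPM in the order DMSO, inhibitor, 5-Aza-CdR and combination, where the combination was highest. Median changes in the unshared sets were 0.74 for J2 without the inhibitor (19 higher), 1.66 for Z22 (51 higher) and -0.07 in total RNA (10 higher, 3 lower), where 8.61%, 9.65% and 15.8% of all genes were higher. Members within 2-fold in the J2 pair included Irf1 at 0.51, Samhd1 at 0.14, Tmem173, which encodes STING, at 0.12 and Cgas at -0.45.

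Windows of Ifit3 at chr19:34583281-34583580 on the plus strand and Oas3 at chr5:120777612-120777911 on the minus strand are shown because they hold the letters GAAANNGAA or, on the other strand, TTCNNTTTC, a loose form of the interferon-stimulated response element. Capitals mark each match, 3 for Ifit3 and 2 for Oas3, and the windows hold 1 and 3 CpG pairs.
Ifit3: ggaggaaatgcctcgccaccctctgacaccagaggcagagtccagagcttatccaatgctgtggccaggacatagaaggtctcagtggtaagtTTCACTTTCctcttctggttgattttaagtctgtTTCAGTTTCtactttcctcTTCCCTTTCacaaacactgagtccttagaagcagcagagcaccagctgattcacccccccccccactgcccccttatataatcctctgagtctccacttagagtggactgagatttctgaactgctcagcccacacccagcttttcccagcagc
Oas3: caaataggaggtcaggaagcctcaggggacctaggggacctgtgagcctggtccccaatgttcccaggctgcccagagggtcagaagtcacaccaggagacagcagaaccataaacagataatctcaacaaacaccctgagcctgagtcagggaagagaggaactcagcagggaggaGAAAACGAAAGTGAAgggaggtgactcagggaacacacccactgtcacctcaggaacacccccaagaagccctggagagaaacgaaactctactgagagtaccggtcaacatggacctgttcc

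This motif was in 28 of the 59 interferon-stimulated windows (47.5%), in 12.3% of the 2-fold higher, 9.06% of the lower and 8.18% of all tested windows. A match is a run of letters and not a measured binding site. The median CpG number of the interferon-stimulated windows was 4, the lowest of the 6 lists examined. Of the 744 genes past 4-fold, those under 1 CPM with DMSO held the motif in 9.54% of 283 windows and the others in 21.04% of 461.

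Sensors of double-stranded and Z-form RNA were themselves among the higher genes: 16 of 23 tested members were at least 2-fold higher, 11 at least 4-fold and none lower, with a median of 1.66 (0.40 to 2.93), against 14.3% and 5.33% over all genes. For 5-Aza-CdR over DMSO in J2, 6 were higher and the median was 0.66, against 8.61% higher over all genes. Zbp1 changed most, by 5.82, with J2 values of 45.2 CPM for vehicle, 1.60 for the inhibitor, 130.0 for 5-Aza-CdR and 118 for the combination. Oas2, which makes the second messenger that activates RNase L, lay at 91.1 CPM in the DMSO library, 9.59 after ADAR1i-124 alone, 165 after 5-Aza-CdR alone and 181 after both. For Oasl2 the values were 25.2 CPM after ADAR1i-124 alone and 365 in the combination, beside 230.3 for DMSO and 365 for 5-Aza-CdR, again lowest with the inhibitor alone. Ifih1 lay at 161 CPM for vehicle, 52.5 for the inhibitor, 274 for 5-Aza-CdR and 286 for the combination, a ratio of 5.45 (5.03 to 5.90). Ddx58, which encodes RIG-I (1.66), the endosomal sensor Tlr3 (1.49) and Eif2ak2, which encodes PKR (1.40), were higher by less, and all 3 were named with their values known. The adaptor Mavs, through which RIG-I and MDA5 signal, changed by -0.51. In total RNA, 5-Aza-CdR against DMSO gave a median of -0.14 for the list, with 3 of 23 higher, against 15.8% of all genes. Adar, the target of the inhibitor and itself interferon-inducible, lay at 176 CPM in the DMSO library, 83.3 after ADAR1i-124 alone, 255 after 5-Aza-CdR alone and 243 after both, a ratio of 2.92 (2.73 to 3.13). The rest of the list of ADAR enzymes and double-stranded RNA binding proteins moved little: 2 of 29 were higher, 1 lower and the median was -0.23. Zfr2, a relative of the zinc finger protein ZFR, was the other higher member at 2.80, and Rnaseh2b, a subunit of the enzyme that removes RNA from DNA hybrids, the lower one at -1.19.

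Antigen presentation genes were higher from the heavy chains to the peptide supply. Of 25 tested members of the MHC class I list 17 were at least 2-fold higher, 16 at least 4-fold and none lower, with a median of 2.55 (0.996 to 3.11), against 14.3% and 5.33% over all genes. In the J2 pair without the inhibitor 7 were higher, against 8.61% of all genes, and the median was 0.67. The list shares Tap1, Tap2, Psmb8, Psmb9 and Psmb10 with the interferon-stimulated list. H2-Q6 and H2-Q7, nonclassical heavy chains that are near-identical copies whose reads may be split, changed by 5.48 and 4.48. H2-T23, the mouse Qa-1 molecule, lay at 14.3 CPM after ADAR1i-124 alone and 214 in the combination, beside 185 for DMSO and 182 for 5-Aza-CdR. The immunoproteasome subunit Psmb8 lay at 23.6 CPM for vehicle, 2.92 for the inhibitor, 75.9 for 5-Aza-CdR and 46.6 for the combination. The chaperones Calr, Pdia3 and Canx, which act on many glycoproteins, were between -0.20 and 0.03. In total RNA the list had a median of 1.42 for 5-Aza-CdR over DMSO with 14 higher, against 15.8% of all genes. The median of the interferon-stimulated list there was -0.07.

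Inflammatory genes were higher as well. On the list of NF-kB targets and chemokines 21 of 29 tested members were at least 2-fold higher and none lower, against 14.3% higher over all genes, with a median of 1.55. Of the 32 listed, 23 reached 1 CPM with ADAR1i-124 alone. Tested members below that, Lcn2 and Cxcl2 among them, passed the filter through the combination library and had to be higher. Lcn2, an iron-binding protein of the acute response, changed by 7.79 and lay at 76.7 CPM in the DMSO library, 0.764 after ADAR1i-124 alone, 143 after 5-Aza-CdR alone and 279.8 after both. ADAR1i-124 alone was the low library for Lcn2. The summed list lay at 2436, 1647, 4028 and 4714 CPM in J2 for DMSO, inhibitor, 5-Aza-CdR and combination. Z22 held 1230, 1541, 2279 and 3930 CPM in that order. In total RNA the list summed to 2890 CPM with DMSO, 5708 with ADAR1i-124 and 6545 with 5-Aza-CdR. The inhibitor alone was thus the low library for this list in J2 only. Ccl2, which draws monocytes, lay at 135 CPM after ADAR1i-124 alone and 1096 in the combination, beside 394 for DMSO and 1039 for 5-Aza-CdR. Cxcl2, which draws neutrophils, lay at 0.164 CPM for vehicle, 0.695 for the inhibitor, 6.84 for 5-Aza-CdR and 24.6 for the combination, and the combination was the highest of the 4. Saa3 changed by 4.94, Ccl7 by 3.51 and Cd274, which encodes PD-L1, by 2.84. The pathway's own subunits were within 2-fold, with Nfkb1 at 0.47, Rela at 0.65 and Rel at -0.11, apart from Relb at 1.22. Immune genes outside the lists were also among the 15 furthest above: Slfn4 at 6.56, the protease inhibitor Slpi at 6.27, the TNF receptor family gene Tnfrsf26 at 6.11 and the granulocyte growth factor Csf3 at 5.82. Csf3 had J2 values of 0.657 CPM in the DMSO library, 0.278 after ADAR1i-124 alone, 44.2 after 5-Aza-CdR alone and 43.5 after both. Those of Slpi were 3.75 CPM after ADAR1i-124 alone and 327 in the combination, beside 17.2 for DMSO and 318 for 5-Aza-CdR, so in both genes the combination and 5-Aza-CdR alone were alike and both others lower.

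**Figure D3:**
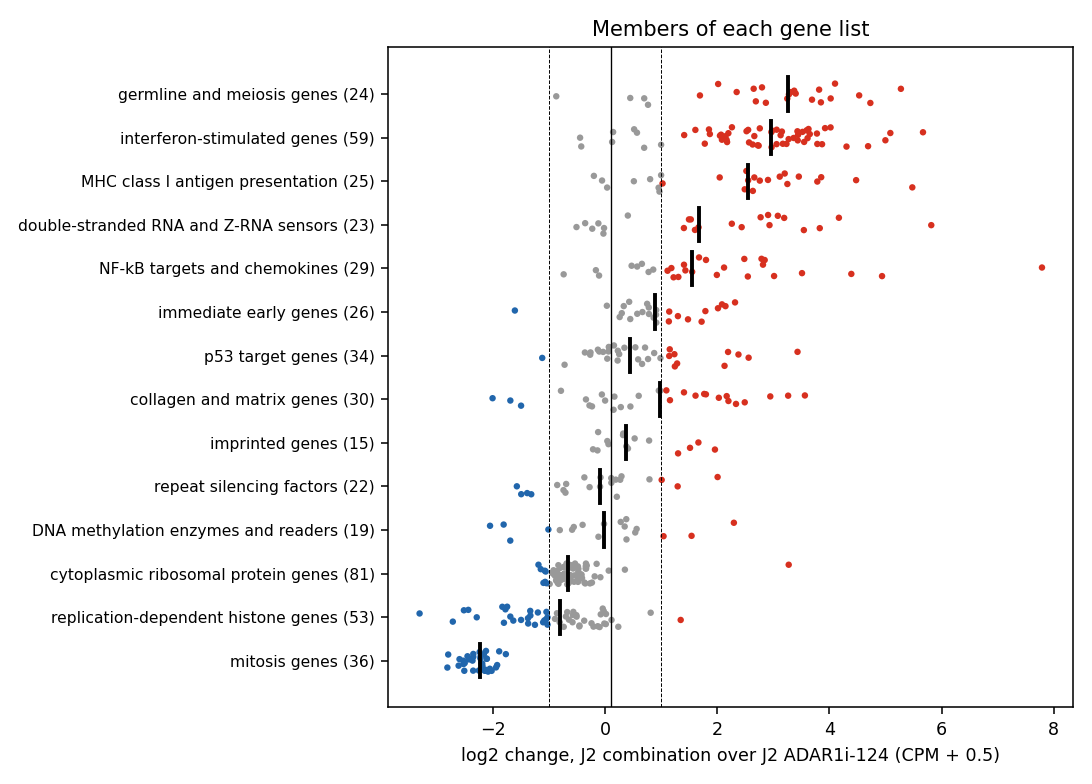
Change of each tested member (log2, combination over ADAR1i-124, J2 libraries) by gene list, for 14 of the lists, with 1 point per gene, the list median as a thick bar, dashed lines at 1 and -1 and a thin line at the median of all genes, 0.11. Germline, interferon-stimulated, MHC class I, sensor and NF-kB lists have medians of 3.26, 2.96, 2.55, 1.66 and 1.55, and mitosis and histone genes of -2.23 and -0.81.

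Genes of cell division had the most lower members of the 31 lists. All 36 genes on the mitosis list were tested and all 36 were at least 2-fold lower in the combination, 32 of them at least 4-fold, with a median of -2.23 (-2.37 to -2.14) and a range of -2.82 to -1.77, against 5.64% lower over all genes. Cdc20, the activator of the anaphase-promoting complex, lay at 20.2 CPM for vehicle, 103 for the inhibitor, 23.01 for 5-Aza-CdR and 14.2 for the combination, a ratio of 0.138 (0.117 to 0.162). Mki67, the proliferation marker, lay at 167 CPM in the DMSO library, 1171 after ADAR1i-124 alone, 134 after 5-Aza-CdR alone and 167 after both. In both genes ADAR1i-124 alone was the high library and the other 3 were alike, DMSO included. Summed J2 CPM of the list was 1498 for DMSO, 6929.8 for ADAR1i-124, 1555 for 5-Aza-CdR and 1365 for the combination. Total RNA held 6094 CPM with DMSO, 4451 with ADAR1i-124 and 809 with 5-Aza-CdR, so that DMSO was the highest there. Z22 held 3085, 5999, 3576 and 566 CPM in the order of treatments used above, with DMSO below ADAR1i-124 as in J2, and IgG held 5652. For 5-Aza-CdR against DMSO the J2 median was 0.03 with no member past 2-fold, where total RNA had a median of -2.82 with all 36 lower. The Z22 pair had a median of -3.33, again with all 36 lower. Ccna2 (-2.60), Birc5 (-2.54), Hmmr (-2.62) and Knl1 (-2.53) were further members. Aspm (-2.75) and Kif14 (-2.70), which act at the spindle, the helicase gene Pif1 (-2.81) and Pimreg (-3.00) were among the 15 genes furthest below without being listed.

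Windows of Cdc20 at chr4:118437303-118437602 and Mki67 at chr7:135716312-135716611, both on the minus strand, are shown for a form of the cell cycle homology region, spelled TTTGAA or, read from the other strand, TTCAAA, and for the CCAAT box, spelled CCAAT or from the other strand ATTGG, which stand in capitals. Cdc20 has 1 and 2 matches and 26 CpG pairs, and Mki67 has 2 and 3 matches and 35 CpG pairs.
Cdc20: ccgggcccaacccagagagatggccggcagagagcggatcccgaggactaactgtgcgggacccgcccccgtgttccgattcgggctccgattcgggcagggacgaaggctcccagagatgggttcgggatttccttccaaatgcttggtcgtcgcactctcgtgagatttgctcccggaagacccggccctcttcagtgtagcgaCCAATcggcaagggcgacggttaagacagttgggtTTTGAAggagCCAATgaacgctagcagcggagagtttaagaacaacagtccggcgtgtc
Mki67: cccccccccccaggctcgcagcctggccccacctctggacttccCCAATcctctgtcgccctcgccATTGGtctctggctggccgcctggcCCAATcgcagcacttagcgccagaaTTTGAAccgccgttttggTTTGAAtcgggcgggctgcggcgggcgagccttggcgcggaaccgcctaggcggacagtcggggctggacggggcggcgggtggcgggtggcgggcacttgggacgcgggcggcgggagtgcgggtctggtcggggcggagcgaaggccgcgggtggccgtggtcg

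Both motifs occurred together in 19 of 36 mitosis windows (52.8%), in 36.2% of the 116 genes at least 4-fold lower, in 17.3% of the 2-fold lower genes and in 6.01% of all tested genes. TTTGAA, with or without CCAAT, was in 63.9%, 46.6%, 27.0% and 15.02% of these groups. CCAAT was in 27 of the 36 mitosis windows and in 62.1%, 51.7% and 38.8% of the other groups. CCAAT was also in 17 of 25 MHC class I windows.

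Histone genes, whose transcripts are made in S phase, were lower in part. Of 53 tested replication-dependent histone genes 24 were at least 2-fold lower, 5 at least 4-fold and 1 higher, with a median of -0.81 (-1.11 to -0.52), or 45.3% lower against 5.64% over all genes. Hist1h1b, a linker histone, lay at 224 CPM after ADAR1i-124 alone and 22.1 in the combination, beside 40.9 for DMSO and 34.8 for 5-Aza-CdR. Hist1h2bb, a core histone, changed by -2.72. The Z22 pair had 40 of 53 lower and total RNA had 26, while J2 without the inhibitor had 3, against 6.28%, 9.04% and 5.17% of all genes. Ribosomal protein genes were lower by less, with a median of -0.67 (-0.72 to -0.58) and 7 of 81 past 2-fold (8.64%, against 5.64% over all genes), and 1 higher. That one, Rpl39l, is a germ-cell form with 0 counts with ADAR1i-124 and 51 with the combination, at least 20.8-fold higher. Among the lower genes outside these lists, Ccn2 (-3.61), Cavin2 (-3.23) and Acta2 (-3.11) encode a matrix-associated growth regulator, a coat protein of caveolae and smooth muscle actin. Ccn2 lay at 35.3 CPM for vehicle, 122 for the inhibitor, 4.89 for 5-Aza-CdR and 9.60 for the combination, so both 5-Aza-CdR libraries were lowest.

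**Figure D4:**
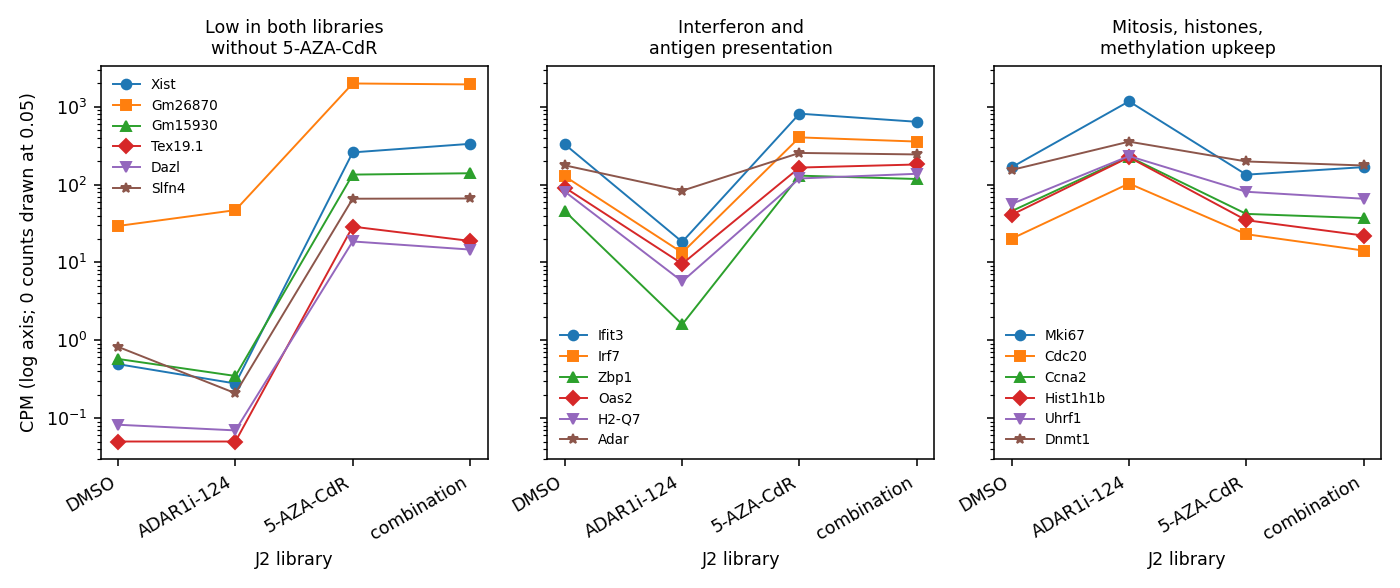
CPM (log axis) of selected genes in the 4 J2 libraries, 1 library each, from DMSO on the left to the combination on the right, with lines that only join the values of 1 gene and counts of 0 drawn at the bottom. Xist, the germline genes and the satellite-like Gm26870 are lower in the first 2 and higher in the last 2, Ifit3 and Zbp1 are lowest with ADAR1i-124 alone, and Cdc20 and Mki67 are highest with ADAR1i-124 alone.

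DNA methylation enzymes and readers had 3 higher and 4 lower members of 19 tested, 15.8% and 21.1% against 14.3% and 5.64% over all genes. Dnmt1, the target of 5-Aza-CdR, lay at 154 CPM in the DMSO library, 356 after ADAR1i-124 alone, 198 after 5-Aza-CdR alone and 176 after both, a change of -1.02. Uhrf1, which brings DNMT1 to newly copied DNA, changed by -1.81, and the remodeller Hells and its partner Cdca7 by -1.70 and -2.06. Those 4 were the lower members, and Dnmt3l (2.29), a germline cofactor, Zbtb4 (1.54), a reader of methylated DNA, and Tet2 (1.04), which oxidises the mark, were the higher ones. The de novo enzymes Dnmt3a and Dnmt3b were at 0.53 and -0.59. Among 22 repeat silencing factors 3 were higher (13.6%) and 4 lower (18.2%), the lower ones being Suv39h1 (-1.58), Chaf1b (-1.50), Cbx5 (-1.39) and Chaf1a (-1.32), which lay down or read heterochromatin or load histones behind the fork. Suv39h2, which modifies the same lysine as Suv39h1, Daxx, which loads histone H3.3, and Resf1 were the higher ones. Suv39h2 lay at 14.7 CPM after ADAR1i-124 alone and 60.6 in the combination, beside 5.34 for DMSO and 54.1 for 5-Aza-CdR, high in both 5-Aza-CdR libraries. Daxx changed by 1.29 and Resf1 by 1.01. Under the TMM and DESeq2 factors Tet2 was less than 2-fold higher, and so was Resf1, at 0.85 under both. The core silencers Setdb1 and Trim28 were at -0.09 and -0.71. For 5-Aza-CdR over DMSO in J2 each list had none lower and 1 higher, with medians of 0.20 and 0.24. In the Z22 pair 5 methylation and 6 silencing genes were lower and 2 of each higher. Total RNA had 5 and 4 lower and 3 and 1 higher. Over all genes 5.17%, 6.28% and 9.04% were lower and 8.61%, 9.65% and 15.8% higher in these pairs.

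The lists described next had medians between 0.07 and 0.97, and their counts in the main J2 pair stand beside 14.3% higher and 5.64% lower genes over all members. Retrovirus-derived genes that the host has taken over had no member past 2-fold among 8 tested and a median of 0.07, which was -0.05 under the TMM and DESeq2 factors. Of 15 imprinted genes 4 were higher: Plagl1 (1.96), Peg3 (1.66), Impact (1.51) and Grb10 (1.30). The 42 tested KRAB zinc finger genes of the Zfp900 to Zfp999 range had 6 higher, which is 14.3%, the share over all genes, and a median of 0.33. Of 34 p53 targets 10 were higher and 1 lower, led by Gdf15 (3.43), Cd80 (2.56) and Trp53inp1 (2.38), and the median was 0.44. Immediate early genes had 10 of 26 higher and 1 lower with a median of 0.88, among them Junb (2.32), Klf4 (2.15) and Atf3 (2.01). Of 30 ATF4 targets 10 were higher and 2 lower (median 0.31), with Ddit3 at 2.54 and Psat1 at -1.29. For that list J2 without the inhibitor had none higher and 12 lower (median -0.90), total RNA 3 higher and 15 lower (-0.89), and the Z22 pair 9 higher and 1 lower (0.43). Over all genes 8.61%, 15.8% and 9.65% were higher and 5.17%, 9.04% and 6.28% lower in these pairs. NRF2 targets had 5 of 25 higher (median 0.59), such as Slc7a11 (1.99) and Nqo1 (1.63). Aryl hydrocarbon receptor targets had 4 of 9 higher, and heat shock genes 4 of 21 higher and 1 lower. Matrix genes had 14 of 30 higher and 3 lower with a median of 0.97. In J2 without the inhibitor 3 of them were higher and 17 lower, against 8.61% and 5.17% of all genes, with a median of -1.38. Dedifferentiation and neural crest genes had 7 of 27 higher and 2 lower, with Sox9 at 2.22. Their changes ran from -3.61 to 2.50, so the largest was a fall.

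Markers of other cell types were few, and their counts stand beside 14.3% higher genes over all members. Of 20 leukocyte markers 3 were tested and 2 were higher, the summed list lying at 14.1 CPM with ADAR1i-124, 46.7 with the combination, 41.2 with 5-Aza-CdR and 66.3 with DMSO. S100a8 changed by 4.71 and Cd68 by 1.44. Of 9 endothelial markers 2 were tested, and Cdh5, the endothelial cadherin, lay at 8.21 CPM for vehicle, 3.13 for the inhibitor, 60.2 for 5-Aza-CdR and 59.6 for the combination. Of 14 epithelial markers 5 were tested and 4 were higher, but only 2 reached 1 CPM with ADAR1i-124 alone, so that the others passed the filter through the combination library. The keratins Krt8 and Krt18 had 0 counts with ADAR1i-124 and 147 and 103 with the combination, at least 59.9-fold and 42.0-fold higher. Summed epithelial CPM was 3.89 with ADAR1i-124 and 32.1 with the combination. Of 20 pigmentation genes 4 were tested with 2 higher, Gpnmb (1.93) and Mlph (1.40), and 1 of 5 tested melanoma identity markers was higher, Cdkn2a (1.36), at 0.556 and 2.21 CPM. The part of other cell types in the immune changes was not tested.

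Some noncoding classes had other shares of higher genes than messages. Long intergenic noncoding RNAs were higher in 86 of 275 cases (31.3%), and unprocessed pseudogenes in 17 of 46 (37.0%), against 1646 of 11403 protein-coding genes (14.4%). These shares describe the genes that passed the filter: 72 of those 275 intergenic RNAs, 17 of those 46 pseudogenes and 677 of the protein-coding genes were below 1 CPM with ADAR1i-124 alone and passed through the combination library, where they had to be higher. Processed pseudogenes, whose reads may come from their parent messages, had 44 higher and 88 lower of 761 and a median of -0.39. Of 51 small nucleolar RNAs 12 were lower (23.5%) and 1 higher. The share of lower genes over all members was 5.64%, beside which the counts of lower genes in this paragraph stand. Transcribed unprocessed pseudogenes were higher in 13 of 33 cases (39.4%), transcribed processed pseudogenes in 2 of 48 and small nuclear RNAs in 1 of 29. Of those 33, 9 were below 1 CPM with ADAR1i-124 alone and also had to be higher. Genes annotated as still to be experimentally checked (TEC) were higher in 99 of 787 cases (12.6%), processed transcripts in 15.9%, sense intronic RNAs in 15.1% and antisense RNAs in 18.1%, closer to protein-coding genes. Of the 149 antisense RNAs 34 had passed only through the combination library, and of the 787 TEC genes 96. Malat1, the most counted nuclear long noncoding RNA, lay at 18345 CPM in the DMSO library, 5278 after ADAR1i-124 alone, 14604 after 5-Aza-CdR alone and 19464 after both. Neat1, the scaffold of paraspeckles and named after its values were seen, changed by 0.84. Of 23 nuclear long noncoding RNAs 5 were higher and 3 lower. Structured RNAs such as 7SK and 7SL, among the most counted in the precipitate, had 1 of 20 lower and none higher, and their summed CPM was 169295 with ADAR1i-124 and 168301 with the combination. Mitochondrially encoded genes, which form long duplexes from both strands, had 1 of 15 lower (mt-Nd3 at -1.30), none higher and a median of -0.24, and 1 of 8 mitochondrial transfer RNAs was lower.

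Higher genes often lay side by side. The next tested gene on the chromosome was also 2-fold higher for 25.3% of higher genes, against 14.3% of all, and also lower for 10.2% of lower genes, against 5.64%. There were 22 runs of at least 5 neighbouring higher genes and no such run of lower genes. Among these runs were Sp100, Sp110 and Sp140 with related copies on chromosome 1 (12 genes, median 2.12), Irgm1, Tgtp1, Tgtp2 and Ifi47 on chromosome 11 (11 genes, 2.52), the Trim30 and Trim34 genes on chromosome 7 (8 genes, 2.90), the Oas genes on chromosome 5 (6 genes, 3.05), H2-D1 to H2-Q7 (6 genes, 3.97) and the H2-T genes (6 genes, 3.18) on chromosome 17, and the Slfn genes on chromosome 11 (5 genes, 2.05). Families of near-identical copies and the Ugt1a and Pcdhg genes, which share exons, can carry each other's reads, so a run is not a count of independent genes. Chromosome 13, which holds the large histone cluster, had 8.45% lower genes, and chromosome X had 9.66% higher.

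Values in libraries that the pair does not use differed by preparation. With Z22, where 9.65% of the 13971 genes were 2-fold higher with the combination than with ADAR1i-124 and 6.28% lower, 1192 genes were higher in both pairs, which is 59.6% of the J2 genes and 88.4% of the Z22 genes, and 547 were lower in both (69.4% and 62.4%). In total RNA, 5-Aza-CdR against DMSO gave 15.8% higher and 9.04% lower, and the shared genes were 1308 higher (65.4% of the J2 genes and 59.4% of the total RNA genes) and 546 lower (69.3% and 43.2%). J2 with 5-Aza-CdR against DMSO gave 8.61% higher and 5.17% lower, and shared 732 higher genes (36.6% and 60.8%) but only 76 lower ones (9.64% and 10.5%). Spearman correlations of the changes across the 13971 genes were 0.81 for Z22, 0.73 for total RNA and 0.18 for J2 without the inhibitor, given as a description over genes. The 788 lower genes had median changes of -1.38 in Z22, -1.38 in total RNA and 0.03 in J2 without the inhibitor. The 2001 higher ones had medians of 1.17, 1.41 and 0.57.

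**Figure D5:**
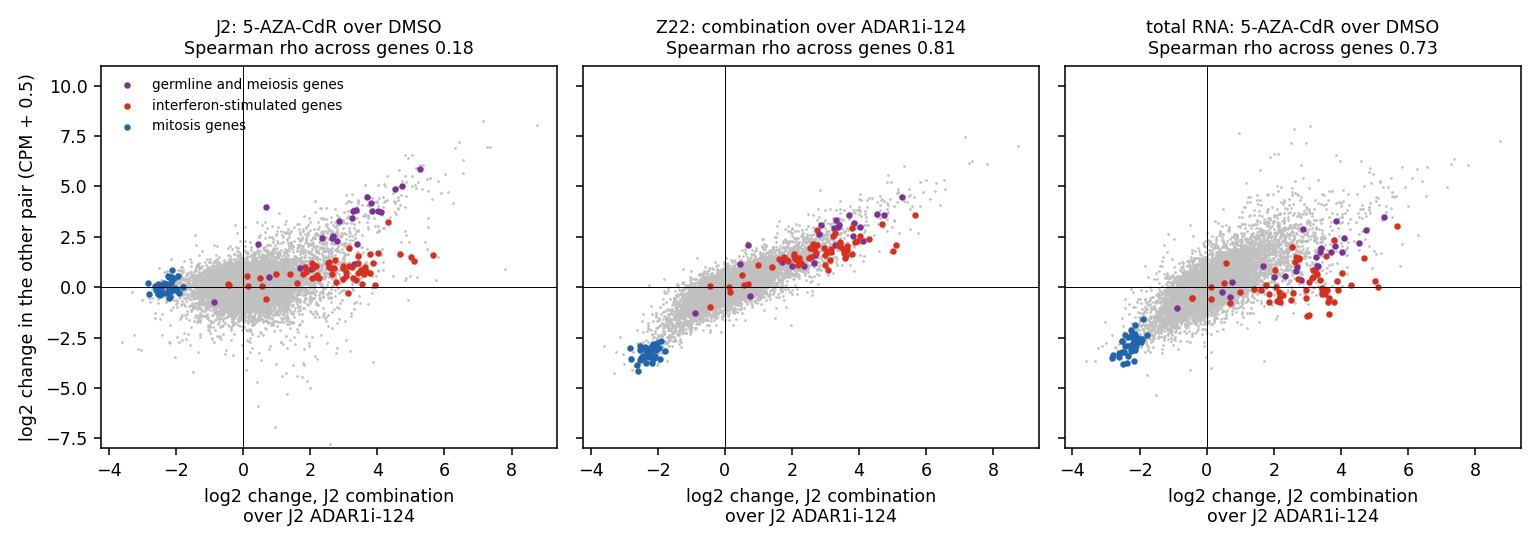
Change of each of the 13971 genes in the J2 pair (x axis, log2 of combination over ADAR1i-124) against its change in 3 pairs of libraries not shared with it (y axes, log2), with germline, interferon-stimulated and mitosis genes coloured. Points follow the diagonal in the Z22 and total RNA panels, with Spearman correlations of 0.81 and 0.73, and spread away from it in the panel of 5-Aza-CdR over DMSO in J2, with 0.18.

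The higher genes were also split by their level with DMSO. Of the 744 genes past 4-fold, 283 (38.04%) were under 1 CPM in the J2 DMSO library, against 928 of all tested (6.64%). Of those 283, 269 (95.1%) were 2-fold higher for 5-Aza-CdR over DMSO in J2, 265 in Z22 and 251 in total RNA. Since they were picked as low with DMSO, a fall in that comparison could hardly be seen. Of the other 461, which were at 1 CPM or more with DMSO, 198 (43.0%) were higher and 38 lower in J2 without the inhibitor, while 406 (88.1%) were higher in Z22 and 331 (71.8%) in total RNA. Xist, Dazl, Gm15930 and Slfn4 are among the first and Ifit3, Irf7, Zbp1 and Lcn2 among the second.

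Genes on regions from the study's supplementary lists were also followed. Those regions were chosen by the study on sequencing samples that include libraries of this series, so the lists are not independent of these data. Of 231 tested genes with an exon on 1 of 373 hyper-edited regions, 14 (6.06%) were 2-fold higher and 19 (8.23%) lower, with a median of -0.15, against 14.3% and 5.64% of all genes. Wdr76, Iws1 and Gnl3l, hosts of hyper-edited duplexes, changed by -1.33, -0.23 and -0.56. Wdr76 lay at 46.8 CPM after ADAR1i-124 alone and 18.3 in the combination, beside 13.1 for DMSO and 19.8 for 5-Aza-CdR, so that ADAR1i-124 alone was highest. Of 69 tested genes with an exon on 1 of 932 regions listed as induced by 5-Aza-CdR, 37 (53.6%) were higher and none lower, with a median of 1.12, and the median was 0.08 for 5-Aza-CdR over DMSO in J2, 0.68 for the Z22 pair and 1.31 in total RNA. Of these 37, Tnfrsf26, Slfn5, Snhg14, Tns4, Vmn2r-ps11, Snhg11, Pou6f1 and Cyba were below 1 CPM with ADAR1i-124 alone. They passed the filter through the combination library and had to be higher.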

How the data were processed

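Total RNA of YUMM1.7 cells and RNA precipitated with J2, Z22 or IgG were sequenced in 13 libraries, 1 per condition, and each library was given its condition from its label. The authors ran the snakePipes pipelines, in which STAR mapped paired reads to GRCm38 (mm10), and deposited raw counts for 54532 genes, which were not normalized. The counting tool within the pipeline and its strand setting are not given in the sources used here. Symbols and positions came from GENCODE M21, and 37 genes had no symbol. Counts were divided by the library total of the table, 0.5 CPM was added before log2, and genes whose mean over the J2 pair reached 1 CPM were kept. Depths were 14396132 and 11767409 counts in the pair.

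No test was run, since each condition has 1 library, and lines of 2-fold and 4-fold were used. Ratios have exact 95% intervals of the counts, list medians have nonparametric intervals, and a gene with 0 counts was set against 3 counts. Named genes were the 15 largest rises and falls among genes that reached a mean of 10 CPM, at most 6 members past 2-fold of each of 31 lists (2 of the most counted where none was past it), and Adar, Ifih1, Zbp1, Dnmt1, Wdr76, Iws1 and Gnl3l, in all 159. Other genes were named after their values were seen, or stand for their list. The genes and lists were chosen with earlier results of these data known. Promoter windows and satellite units were read from the GRCm38.p6 genome, which gave 13931 windows, and each motif was searched on both strands. The code for the fold changes was checked on simulated counts, which adds no test of the results.

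Alternatives were edgeR 4.0.16 TMM factors, DESeq2 1.42.0 size factors, totals without the 20 most counted genes, pseudocounts of 0.1 and 2 CPM, a mean of at least 5 CPM, no filter, and protein-coding genes only. Python 3.11.15 with numpy 2.4.6, pandas 2.3.3, scipy 1.17.1 and matplotlib 3.10.9, R 4.3.3, samtools 1.23.1 and bedtools 2.31.1 were used.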

Additional observations from a re-analysis of the deposited data

Results flagged for a closer look

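In 9 named genes the combination was at least 2-fold higher than ADAR1i-124 alone in the J2 pair, while 5-Aza-CdR alone was at least 2-fold lower than DMSO in the other J2 pair. The gap between the 2 changes on the log2 scale was 3.15 for Cd68, 4.70 for Col6a1, 6.60 for Grb10, 3.56 for Peg3, 5.29 for Tgfbi, 2.76 for Trib3, 3.96 for Wnt5a, 2.85 for Zfp951 and 4.56 for Zfr2. With 1 library per condition the difference was not tested. In all 9 genes the J2 DMSO library held the highest level of the 4: Col6a1 lay at 46.5 CPM for vehicle, 2.50 for the inhibitor, 8.65 for 5-Aza-CdR and 14.6 for the combination, Grb10 at 34.1 CPM in the DMSO library, 2.43 after ADAR1i-124 alone, 0.376 after 5-Aza-CdR alone and 6.71 after both and Tgfbi at 0.972 CPM after ADAR1i-124 alone and 7.82 in the combination, beside 10.8 for DMSO and 1.13 for 5-Aza-CdR. The same library also held the highest summed Y-linked level of the 4, 56.6 CPM, and the part of that in these genes was not tested. Over all members 139 genes were higher in the first pair and lower in the second, and 24 the other way.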

How the results depend on the processing

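The median over all members turned from 0.11 to -0.0449 with TMM factors and -0.0400 with DESeq2 size factors. Among list medians, those of the heat shock genes (0.10) and retrovirus-derived genes (0.07) turned below 0 with both factors, the first also (-0.0075) among genes that averaged 5 CPM or more, and that of the DNA methylation list turned from -0.02 to 0.00081 without the 20 most counted genes. No other list median and no named gene changed sign. The number of genes at least 2-fold higher was 1053 with a mean of at least 5 CPM, where fewer genes were tested, and that at least 4-fold higher was 379 there and 344 with a pseudocount of 2 CPM, which also gave 72 genes at least 4-fold lower. The other 28 counts stayed within 1.5 times the values given. The germline median was 4.80 with a pseudocount of 0.1 CPM, 1.69 with 2 CPM, 4.19 with a mean of at least 5 CPM (6 genes) and 1.69 with no filter (48 genes). The mitosis median was -2.39 with TMM factors and -2.38 with DESeq2 size factors, and the ribosomal protein median -0.83 and -0.82. With no filter the pigmentation median was 0.18 (14 genes) and the leukocyte median 0.0388 (11 genes). Of the other list medians 174 stayed within their own interval, and 33, of 5 lists with too few members for an interval, within the range of the members. Of the values of named genes 210 moved and 585 did not, and the number back within 2-fold was 7 with TMM, 6 with DESeq2, 14 with a pseudocount of 2 CPM and 1 without the 20 most counted genes. No paired analysis was possible because each condition has 1 library. Depth limits genes under about 0.255 CPM, where 97 tested genes had 0 counts with ADAR1i-124.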
